A study of Mus musculus with 4 samples.

Results

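The immediate early and MAPK feedback genes were chosen by name, as 41 genes out of the 37074 gene names on the array: the AP-1, Egr, Ier, Dusp, Spry and Spred, Etv, Klf and Nr4a families, Myc, Srf, Maff and Phlda1, and the EGF receptor ligands Hbegf, Areg and Ereg. They were measured in GC-1 cells, an immortalised mouse spermatogonial line, on 4 one-colour Agilent arrays of Cy3-labelled RNA. In the Hdac6 vector group (2 arrays) the cells had received a plasmid with murine Hdac6, myc/DDK-tagged, driven by the CMV promoter, and in the empty vector group (2 arrays) a plasmid without it. Both groups were transfected, grown in 10% FBS and harvested at 48 h, with new medium given at 24 h, and no acute stimulus is named in the labels. Whether 2 arrays of a group stand for separate cultures is not stated, and the p-values below rest on a spread between arrays that may be technical.

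Immediate early genes are switched on within minutes of a growth signal, without new protein synthesis, by factors already in the nucleus. In the ERK branch, a receptor tyrosine kinase activates Ras, Raf, MEK and ERK, and ERK phosphorylates Ets-family partners of serum response factor (SRF) at promoters with CArG boxes. Signals that raise cyclic AMP reach some of the same promoters through cyclic AMP response elements (CRE). Among the genes switched on are the brakes of the pathway: Dusp proteins remove phosphate from MAP kinases, and Spry and Spred proteins act upstream, between receptor and Raf. Many of the messages hold AU-rich elements that make them short-lived.

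Sequences are shown for 4 promoters in which such elements can be seen, to set the letters beside the genes' values. RefSeq (GRCm38.p6) gave promoters for 29 of the 41 genes, and the 250 bases before each start were searched on both strands. The CArG box was in 3 of the 29 (10.3%), in Egr2, Dusp5 and Srf, against 1.62% of the 27025 genes with a promoter. The core of the CRE, TGACG, was in 15 (51.7%, against 19.8% of all genes), the Egr site GCGNGGGCG in 9 (31%, against 5.33%), and the Ets core CCGGAA in 3 (10.3%, against 13.6%). A match is a description of letters, and says nothing about binding. In the sequences below, read 5′ to 3′ on the gene's strand, capitals mark CArG boxes and CRE cores.

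Dusp5 (chr19:53528895-53529144, plus strand) holds 2 adjoining CArG boxes and 1 CRE core. Srf (chr17:46556163-46556412, minus strand) also holds 2 CArG boxes and 1 CRE core. Their log2 fold changes below lay on opposite sides of 0, but both 95% intervals include 0. Egr2 (chr10:67537619-67537868, plus strand, the first of 3 listed starts that hold these matches) holds 1 CArG box and 2 CRE cores. Dusp1 (chr17:26508473-26508722, minus strand) holds no CArG box and 3 CRE cores, of which 2 overlap in a palindrome.
Dusp5: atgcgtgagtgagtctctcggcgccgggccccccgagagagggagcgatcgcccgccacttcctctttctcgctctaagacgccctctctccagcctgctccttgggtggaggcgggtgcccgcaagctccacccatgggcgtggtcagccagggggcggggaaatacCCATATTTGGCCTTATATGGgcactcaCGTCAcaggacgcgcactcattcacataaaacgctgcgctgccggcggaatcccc
Srf: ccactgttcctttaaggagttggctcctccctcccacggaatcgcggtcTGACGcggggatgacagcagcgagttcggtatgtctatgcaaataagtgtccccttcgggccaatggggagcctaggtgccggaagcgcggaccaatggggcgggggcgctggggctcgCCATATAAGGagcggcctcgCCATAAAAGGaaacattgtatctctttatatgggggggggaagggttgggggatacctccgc
Egr2: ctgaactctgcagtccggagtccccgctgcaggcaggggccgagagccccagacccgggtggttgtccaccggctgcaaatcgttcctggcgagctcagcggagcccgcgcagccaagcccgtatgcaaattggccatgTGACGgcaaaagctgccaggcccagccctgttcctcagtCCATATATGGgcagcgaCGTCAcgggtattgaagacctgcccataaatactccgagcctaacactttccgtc
Dusp1: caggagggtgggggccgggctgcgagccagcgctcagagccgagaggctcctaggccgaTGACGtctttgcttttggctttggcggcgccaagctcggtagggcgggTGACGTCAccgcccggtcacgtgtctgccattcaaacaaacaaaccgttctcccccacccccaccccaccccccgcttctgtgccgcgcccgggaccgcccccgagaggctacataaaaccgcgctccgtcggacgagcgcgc

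The array's probes are 60 bases long. They hold the AATAAA polyadenylation signal more often than its reverse complement, TTTATT (10.7% against 3.79% of 35214 probes well above background). ATTTA, the core of AU-rich elements, was in the brightest probe of 6 of 40 members (15%), against 7.49% of those probes. In the members' brightest probes AATAAA was in 2 of 40 (5%) and TTTATT in 6 of 40 (15%), the opposite order. The stretches of 30 bases that follow, with ATTTA in capitals, show it in Ier3 (2 times), Dusp1, Dusp2, Nr4a2 and Phlda1. In Etv4 and Klf10 the capitals mark AATAAA, and the Klf10 stretch is from its other, dimmer probe.
Ier3: tgtaacacagatATTTAttacgATTTAtag
Dusp1: acagttgtatgtttgtttATTTAtgatctg
Dusp2: agttatttgtgttcaactgacATTTAacgc
Nr4a2: ggcagaggcttgtaaATTTAtccaatgcag
Phlda1: atgactttATTTAtggacctttggaaggat
Etv4: atgccagaccttAATAAAgcctctgcttct
Klf10: ggaaatctaactAATAAAacaacattttat

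Levels are log2 processed intensity minus the array's 75th percentile, so 0 is a bright probe and a difference of 1 is 2-fold. The comparisons of genes below set 1 probe against itself across arrays. Between 61.0% and 66.4% of spots were well above background, and the 75th percentile of the signal was 1279 and 717.5 on the Hdac6 vector arrays, against 1055 and 1081 on the empty vector arrays. Hdac6 itself was at 2.62 and 3.24 with the Hdac6 vector and at 3.31 and 2.83 with the empty vector (0.909-fold, 95% interval 0.578 to 1.43, limma adjusted p = 1.00). The groups overlapped, so this probe did not show the overexpression that the labels state, and the groups are called by their labels. Whether the probe reads the transcript of the plasmid was not tested. Of 12 spermatogonial markers, 5 were well above background on all 4 arrays, with Uchl1 giving the most signal, while Dazl, Kit and Ret were dim on all 4. Of the markers of other cells, 5 of 8 Sertoli, 1 of 5 Leydig, 8 of 9 peritubular and fibroblast and 8 of 10 macrophage and leukocyte genes were above background on all 4, led by Wt1, Cyp17a1, Col1a1 and Cd68. The summed level of the macrophage list was 4.46 and 4.37 on the Hdac6 vector arrays, against 5.16 and 4.58 on the empty vector arrays, and that of the Sertoli list 6.63 and 7.07 against 7.16 and 6.80. That of the spermatogonial list was 3.72 and 4.03 against 4.57 and 3.47, that of the Leydig list -1.87 and -1.57 against -1.98 and -1.88, and that of the peritubular and fibroblast list 8.37 and 8.48 against 8.17 and 8.49. Some marker lists lay below 0 as the members did. The Sertoli list had 6 of 6 tested genes below 0 (median log2 fold change -0.32). In it 3 genes were lower on both Hdac6 vector arrays (50%, against 12.9% of all tested genes). The spermatogonial list had 5 of 7 below 0 (median -0.27). Both medians were further from 0 than the members' median of -0.23 given below. The Leydig list had 2 of 3 below 0 (median -0.21), the macrophage and leukocyte list 5 of 8 (median -0.04) and the peritubular and fibroblast list 2 of 8 (median 0.07), and the limma test called 0 genes in each. Fshr (Sertoli), Ddx4 and Gfra1 (spermatogonial) and Star and Cyp11a1 (Leydig) passed the filter only through the empty vector arrays. Each had the lower mean with the Hdac6 vector, so the filter tilts the lists that hold them below 0. The gene with the most signal in the macrophage sum, the lysosomal gene Cd68, was at 3.32 and 2.89 with the Hdac6 vector and at 4.51 and 3.53 with the empty vector (0.530-fold, 0.312 to 0.899). The smooth muscle actin gene Acta2 was at 3.58 and 3.73 against 3.06 and 3.12 (1.48-fold, 1.04 to 2.10). Cd68 and Acta2 had an unadjusted limma p under 0.05 and an adjusted p of 1.00. Each was the gene furthest from 0 in its list, and their values were added after they were seen. The other tested macrophage and leukocyte genes lay between log2 -0.27 (Cd3e) and 0.13 (Csf1r). The other tested peritubular and fibroblast genes lay between -0.17 (Pdgfra) and 0.13 (Col1a2). The markers' part in the values below was not tested, and fewer cells of a type cannot be told apart from less RNA per cell in bulk samples.

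Most of the genes were read a little lower with the Hdac6 vector, and none changed. Of the 41 genes, 40 had a tested probe, and all 40 were well above background on all 4 arrays. The EGF receptor ligand Areg was not, at -8.13 and -7.46 on the Hdac6 vector arrays and -7.81 and -8.21 on the empty vector arrays, not well above background on any. Log2 fold changes (Hdac6 vector minus empty vector) were below 0 for 33 of the 40, or 82.5%, against 49.3% of all 23492 tested genes. The members' median was -0.23, against 0.00 over all genes. The members were chosen with earlier results of these data known, so these shares and medians are descriptions only. By the limma test at an adjusted p under 0.05, 0 of the 40 passed, where 0.00851% of all tested genes did, and 0 of their 55 tested probes, where 0.0114% of all tested probes did. Of the 40, 2 had an unadjusted p under 0.05, Fosl1 and Dusp4, against 1.84% of all genes. No member differed by 2-fold, as 1.28% of all genes did.

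The median size of a member's log2 fold change was 0.25, against 0.17 over all tested genes. The gap between the replicate arrays of a member had a median of 0.35 in the Hdac6 vector group and 0.36 in the empty vector group, against 0.33 and 0.27 over all tested genes. A gap between single arrays is wider by nature than a difference between means of 2 arrays. Both Hdac6 vector arrays lay below both empty vector arrays for 9 of the 40 (22.5%, against 12.9% of all genes): Fosl1, Junb, Dusp4, Dusp5, Dusp10, Spry1, Spry4, Etv4 and Klf10. They lay above for 3 (7.5%, against 12.3%), Ier3, Etv1 and Nr4a3. For the other 28 the groups overlapped. Hdac6 vector 1 gave the lowest value of the 4 arrays for 18 of the 40 genes (45%), and for 38% of all tested genes. Hdac6 vector 2 was lowest for 9 members (22.5%, against 16.8% of all tested genes). Empty vector 1 was lowest for 7 (17.5%, against 27.7%) and empty vector 2 for 6 (15%, against 17.6%).

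**Figure D1:**
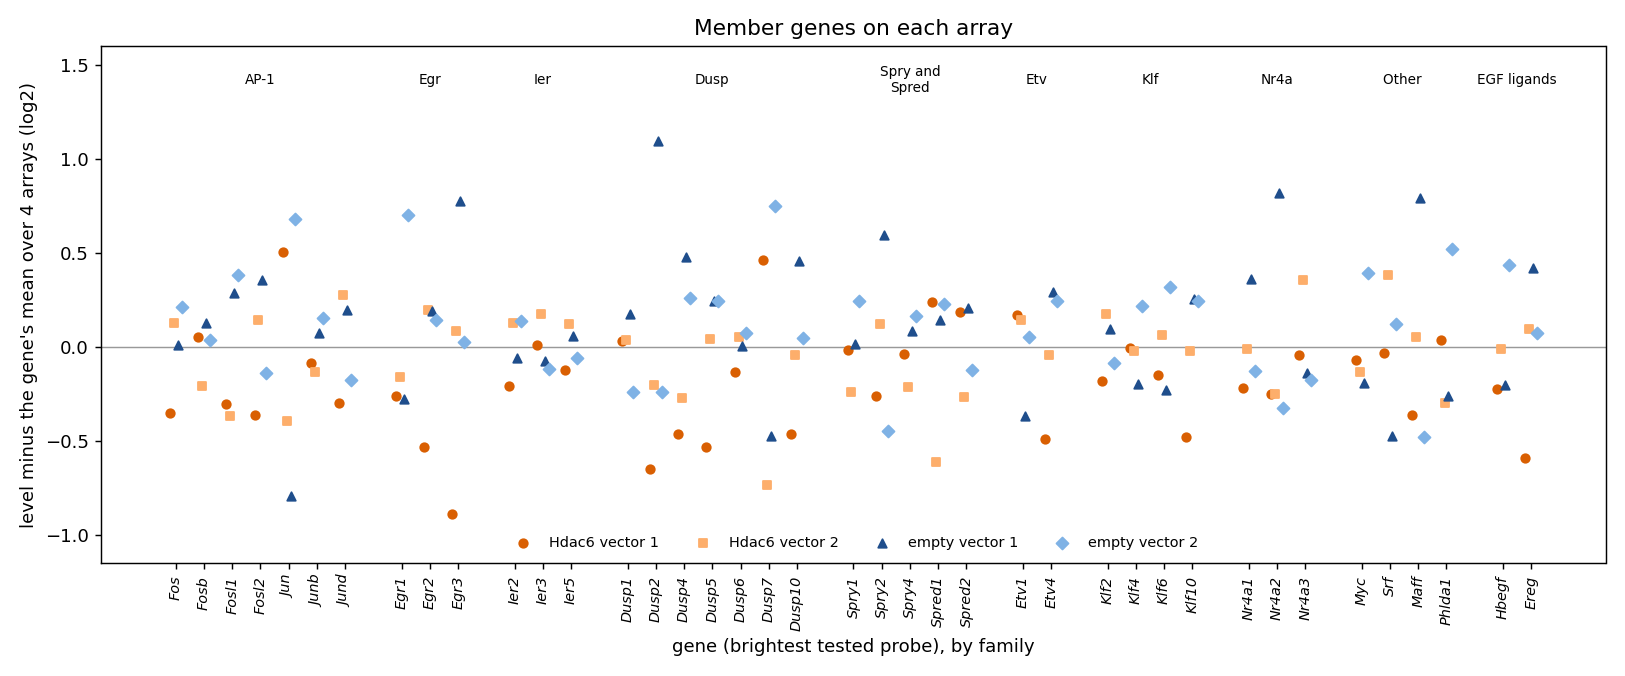
Level of each member gene on each of the 4 arrays, as log2 level minus the gene's own mean over the arrays (y axis), with the genes by family along the x axis. Orange circles and squares are Hdac6 vector 1 and 2, blue triangles and diamonds empty vector 1 and 2. In 9 genes both orange points lie below both blue points, and in most of the others they intermix.

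Bright genes as a whole leaned the same way by less. When tested genes were split into 4 equal groups by mean level, 54.6% of the brightest group had a fold change below 0 (median log2 -0.02), and 16 of the 20 members in that group did (median -0.21). In the next group the share was 55.7% (median -0.03), against 10 of 11 members (median -0.24). In the dimmer groups it was 43.5% and 43.4%, against 5 of 6 and 2 of 3 members.

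Of the AP-1 genes, whose products pair as Fos and Jun proteins to bind DNA, 6 of 7 were below 0 (median -0.22) and none passed. Fosl1, which encodes the Fos family protein Fra-1 and is itself a target of ERK and AP-1, was at -0.79 and -0.86 on the Hdac6 vector arrays and at -0.20 and -0.11 on the empty vector arrays. The groups were well apart, and replicates close together. That is 0.628-fold (95% interval 0.420 to 0.939, limma adjusted p = 1.00), from a probe at chr19:5455496-5455555 (mm9, plus strand). Junb, a Jun protein that can restrain Jun, was at 5.79 and 5.74 with the Hdac6 vector and at 5.95 and 6.03 with the empty vector, a small gap (0.857-fold, 0.594 to 1.24).

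Fos, the prototype of the group, was at 0.85 and 1.33 on the Hdac6 vector arrays and at 1.21 and 1.41 on the empty vector arrays (0.858-fold, 0.569 to 1.29). Hdac6 vector 1 alone was low. Fosb was at -2.59 and -2.85 with the Hdac6 vector and at -2.52 and -2.61 with the empty vector, and Jund, the Jun protein with the steadiest expression in most cells, at 6.67 and 7.24 against 7.17 and 6.80. Both overlapped between the groups. Jun varied most within its groups, at 4.24 and 3.34 on the Hdac6 vector arrays and 2.94 and 4.41 on the empty vector arrays, so that its fold of 1.08 has an interval of 0.525 to 2.24.

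Fosl2, which encodes Fra-2, gave 2 answers of different size. Its brighter probe (chr5:32460076-32460135, mm9, plus strand) was at 5.21 and 5.72 with the Hdac6 vector and at 5.93 and 5.44 with the empty vector (log2 -0.22). The other (chr5:32455088-32455147) was at -0.14 and -1.11 against 1.44 and 0.13, with no overlap, at 0.376-fold (0.184 to 0.766, limma adjusted p = 1.00). Its replicates differed by 0.98 and 1.31, and it was the only tested member probe beyond 2-fold.

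The Egr genes encode zinc finger factors induced through SRF. All 3 were below 0 (median -0.42), none passed, and the groups overlapped in each. Egr1 was at 3.77 and 3.87 on the Hdac6 vector arrays and at 3.75 and 4.73 on the empty vector arrays (0.747-fold, 0.451 to 1.24), so empty vector 2 alone was high. Egr2, whose promoter with its CArG box is shown above, was at 0.16 and 0.89 against 0.88 and 0.84 (0.793-fold, 0.502 to 1.25), with Hdac6 vector 1 low. Egr3 was at -4.34 and -3.36 with the Hdac6 vector and at -2.67 and -3.42 with the empty vector (0.573-fold, 0.294 to 1.12). Its log2 fold change of -0.80 was -0.31 with normexp background correction and between -1.29 (without Hdac6 vector 2) and -0.31 (without Hdac6 vector 1) with an array left out, and its other tested probe stood at -0.34. That other probe was not well above background on Hdac6 vector 2, and passed the filter only through the empty vector arrays. Of the Ier genes, short response proteins that share a name more than a function, Ier3 (an inhibitor of cell death) was at 4.76 and 4.92 against 4.67 and 4.63, apart by a small margin (1.14-fold, 0.795 to 1.63). Ier2 and Ier5 were at 0.948-fold and 1.00-fold.

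The Dusp genes gave the lowest median of the families with more than 3 members, -0.49, with 6 of 7 below 0 and none passing. They differ in the kinase they act on and in where they act. Dusp4, a nuclear phosphatase induced by ERK, was at 3.17 and 3.36 on the Hdac6 vector arrays and at 4.11 and 3.89 on the empty vector arrays. No array crossed over, and Dusp4 stood at 0.601-fold (0.417 to 0.866, limma adjusted p = 1.00). Its other probe (chr8:35882045-35882104, against chr8:35884806-35884865 for the first, mm9, plus strand) gave 2.25 and 2.04 against 3.16 and 2.64 (0.593-fold, 0.395 to 0.890).

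Dusp5, a nuclear phosphatase selective for ERK, was at 3.50 and 4.07 with the Hdac6 vector and at 4.27 and 4.28 with the empty vector (0.713-fold, 0.473 to 1.07). Hdac6 vector 2 came close to the empty vector arrays, and so it did at the other probe, with -4.49 and -3.81 against -3.52 and -3.60 (0.666-fold, 0.379 to 1.17). Dusp10, which acts on JNK and p38, was at 1.82 and 2.24 against 2.75 and 2.34 (0.704-fold, 0.466 to 1.06), with the groups apart by little. Dusp2, a nuclear phosphatase first described in activated lymphocytes, had the lowest fold of all members at 0.554 (0.267 to 1.15), yet at -5.09 and -4.64 against -3.35 and -4.68 only empty vector 1 stood apart. Its log2 fold change was -0.85 with all arrays, -0.19 without that array, -1.52 without empty vector 2 and -0.22 with normexp background correction.

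Dusp6, a cytoplasmic phosphatase selective for ERK and a common readout of ERK activity, hardly differed: it was at 6.69 and 6.88 on the Hdac6 vector arrays and at 6.83 and 6.90 on the empty vector arrays (0.945-fold, 0.643 to 1.39). Dusp1, induced by stress as well as growth factors, was at 5.85 and 5.86 against 6.0 and 5.58 (1.05-fold, 0.705 to 1.56). Dusp7, another ERK phosphatase, was at 1.5 and 0.31 against 0.56 and 1.79, its replicates further apart than its groups (0.828-fold, 0.400 to 1.71). Differences as large as 1.39-fold up or 0.643-fold down for Dusp6 thus remain within the interval.

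**Figure D2:**
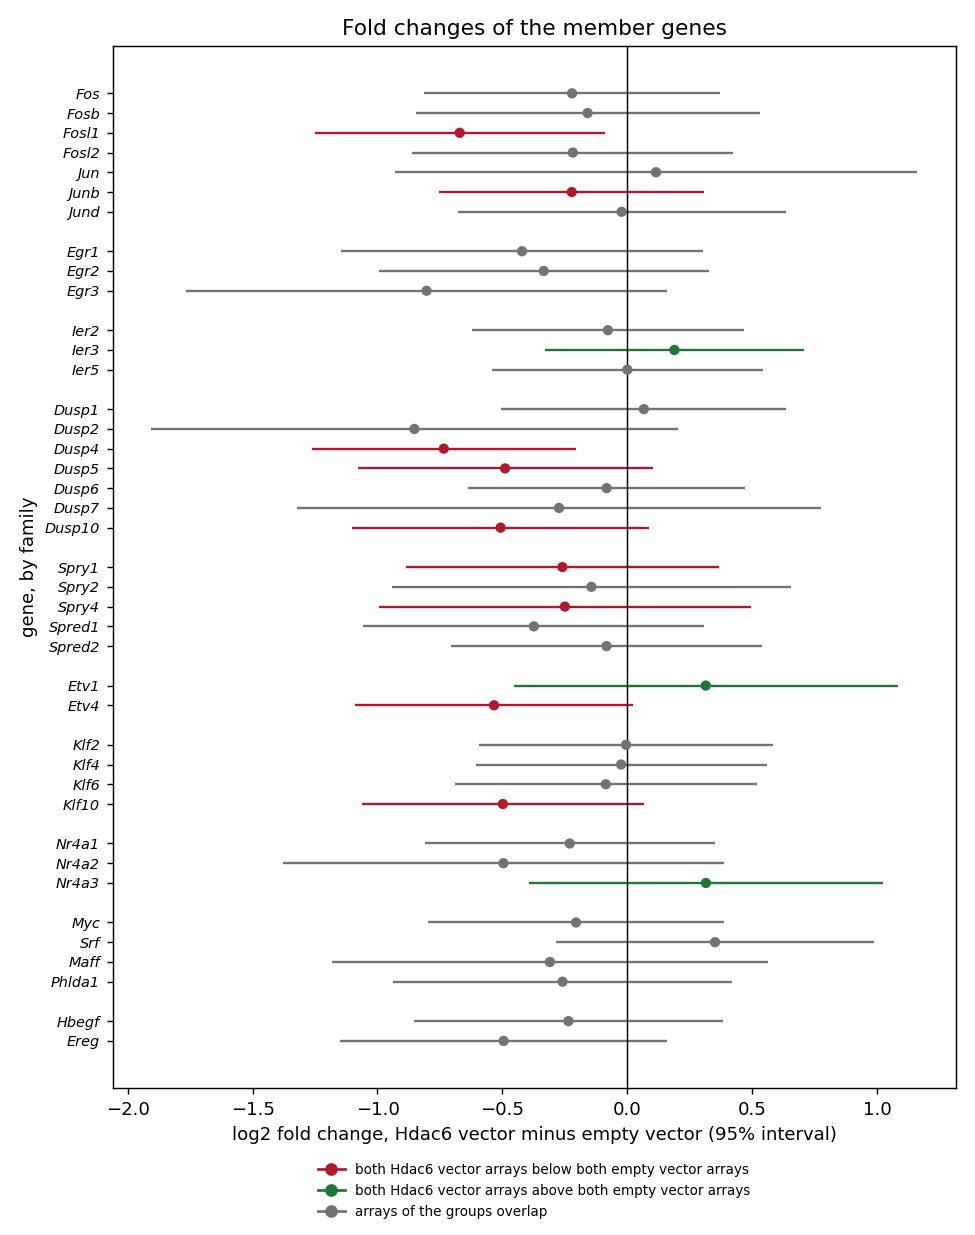
Log2 fold change of each member gene, Hdac6 vector minus empty vector (x axis), with the 95% interval of the limma fit, by family from top to bottom. Red marks genes with both Hdac6 vector arrays below both empty vector arrays, green the opposite, grey overlapping groups. All but the intervals of Fosl1 and Dusp4 include 0, and points lie between -0.85 (Dusp2) and 0.35 (Srf).

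All 5 Spry and Spred genes, brakes on signalling from receptors to Raf, were below 0 (median -0.25), and none passed. Spry1 was at -1.13 and -1.35 on the Hdac6 vector arrays and at -1.10 and -0.87 on the empty vector arrays (0.835-fold, 0.541 to 1.29), and Spry4 at -4.29 and -4.47 against -4.17 and -4.09 (0.841-fold, 0.502 to 1.41). In both the groups were just apart. Spry2 was at 0.27 and 0.66 against 1.13 and 0.09, and Spred2 at 0.45 and 0.00 against 0.47 and 0.14, each with overlap. Spred1 was at 2.43 and 1.58 with the Hdac6 vector and at 2.33 and 2.42 with the empty vector (0.772-fold, 0.481 to 1.24). Only Hdac6 vector 2 was low there, while Hdac6 vector 1 was lowest for 5 of the 7 Dusp genes.

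Etv4 and Etv1 encode Ets factors of the PEA3 group, which act downstream of FGF receptors, and they lay on opposite sides of 0. Etv4 was at 3.35 and 3.79 on the Hdac6 vector arrays and at 4.12 and 4.08 on the empty vector arrays (0.691-fold, 0.469 to 1.02, limma adjusted p = 1.00). Its other probe kept the same order, at -0.15 and 0.02 against 0.64 and 0.34 (0.680-fold, 0.455 to 1.02). Etv1 was at -4.01 and -4.04 against -4.55 and -4.13 (1.24-fold, 0.730 to 2.12). Etv5, the remaining gene of the group and not a member, was at 2.52 and 3.23 with the Hdac6 vector and at 4.06 and 3.18 with the empty vector (0.599-fold, adjusted p = 1.00), with overlap.

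The Klf genes encode zinc finger factors of serum, flow and TGF-beta responses. Klf2, Klf4 and Klf6 hardly differed, at 0.997-fold (0.662 to 1.5), 0.983-fold (0.657 to 1.47) and 0.942-fold (0.620 to 1.43). Klf10, known for its induction by TGF-beta, was at 4.24 and 4.70 on the Hdac6 vector arrays and at 4.98 and 4.96 on the empty vector arrays (0.708-fold, 0.478 to 1.05). Its other probe, whose polyadenylation signal is shown above, was at -3.51 and -3.39 against -2.65 and -2.72 (0.588-fold, 0.363 to 0.953, limma adjusted p = 1.00). Both probes kept the groups apart.

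The Nr4a genes encode orphan nuclear receptors induced by cyclic AMP and growth factors, and each promoter holds 4 CRE cores. Nr4a1 was at 4.13 and 4.34 with the Hdac6 vector and at 4.71 and 4.22 with the empty vector (0.852-fold, 0.570 to 1.28). Nr4a2 was at -2.13 and -2.13 (equal within 0.01) against -1.07 and -2.21 (0.709-fold, 0.385 to 1.31), so empty vector 1 alone stood out. Its other tested probe was at -2.20 and -3.39 against -2.91 and -2.60 (0.971-fold, 0.506 to 1.87), with overlap. Nr4a3 was at -2.77 and -2.37 against -2.87 and -2.91, the groups just apart (1.24-fold, 0.760 to 2.04). The family thus had no common order of the groups.

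Myc, the growth-promoting factor, was at 3.45 and 3.39 on the Hdac6 vector arrays and at 3.33 and 3.92 on the empty vector arrays (0.868-fold, 0.575 to 1.31). Srf had the highest fold change of the members, at 2.43 and 2.85 against 1.99 and 2.59 (1.28-fold, 0.821 to 1.98), but the groups overlapped. With an array left out its log2 fold change lay between 0.0540 (without empty vector 1) and 0.65 (without empty vector 2), so it was not always the highest. Dusp5, which has the same number of CArG boxes in its promoter, was at 0.713-fold (0.473 to 1.07). Egr2, the other gene found with a CArG box, was at 0.793-fold (0.502 to 1.25), and each of these intervals includes 1. Whether the boxes bear on the values was not tested. Maff, a small Maf protein, was at 3.90 and 4.31 against 5.05 and 3.78, and Phlda1, an ERK-induced pleckstrin-like gene, at 3.85 and 3.52 against 3.55 and 4.34. In Maff and Phlda1 a lone empty vector array was high.

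The ligands Hbegf and Ereg bind the EGF receptor and are released from the cell surface. Ereg was at 1.12 and 1.80 with the Hdac6 vector and at 2.13 and 1.79 with the empty vector (0.710-fold, 0.450 to 1.12). Hbegf was at 2.34 and 2.56 against 2.37 and 3.01 (0.849-fold, 0.553 to 1.31). Both overlapped, Ereg by little. A second Hbegf probe was above background on 1 of 4 arrays and was not tested.

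Different probes of a gene offer a check within the same RNA. Of the 40 genes, 14 had 2 or more tested probes, and in 11 all of them had the same sign, against 49.2% of the 7655 genes with 2 or more tested probes. In Dusp4, Dusp5, Etv4 and Klf10 every tested probe was lower on both Hdac6 vector arrays (4 of 14, against 1.78%). Only Spred2 of the 14 had more than 2 tested probes, and the 7655 genes were not matched for the number of probes. Agreement of every probe is harder to reach with more probes, so these shares are not like for like. The signs differed in Junb, Ier2 and Spry2, where the other probe stood at log2 0.02, 0.14 and 0.05. Probes of a gene share their RNA and arrays, so they say nothing about the spread between cultures.

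**Figure D3:**
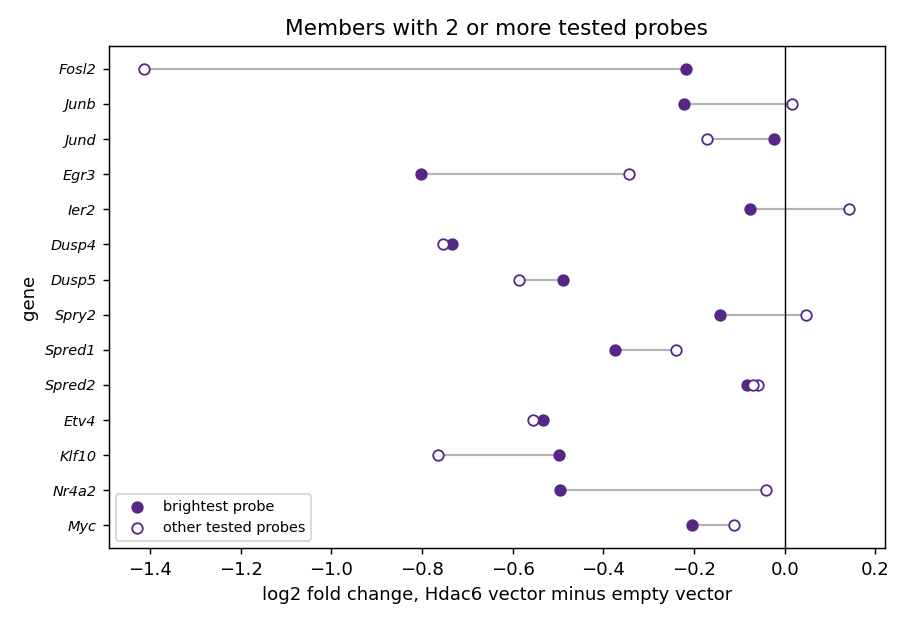
Log2 fold change (x axis, Hdac6 vector minus empty vector) of each tested probe of the 14 members with 2 or more (y axis), with the brightest probe filled and the others open. The probes of Dusp4 (-0.73 and -0.75) and Etv4 (-0.53 and -0.56) nearly coincide, while those of Fosl2 (-0.22 and -1.41) lie far apart.

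The rest of the pathway was read from lists chosen by function, and the limma test called 0 genes in each. Like the members, the lists were chosen with earlier results of these data known, so their medians are descriptions only. Vgf and Pim1 had an unadjusted p under 0.05, and Pim1 is named because its value was seen. Of 10 receptor tyrosine kinase genes, 8 were below 0 (median -0.18), from Fgfr3 at 0.703-fold to Pdgfrb at 1.17-fold. Of 17 genes of adaptors, Ras and Raf, 12 were below 0 (median -0.08), from the Ras exchange factor gene Sos1 at 0.746-fold to Hras at 1.17-fold. MEK, ERK and their kinase targets had 7 of 11 below 0 (median -0.13), from Rps6ka2 at 0.778-fold to Rps6ka3 at 1.36-fold, both of the ribosomal S6 kinase family. The pathway's parts thus lay nearer to 0 than the members' median of -0.23.

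Of the JNK and p38 kinases, 9 of 11 were below 0 (median -0.14), from Map2k7 at 0.809-fold to Mapk8 (JNK1) at 1.22-fold. The SRF partners had 3 of 5 (median -0.14), from Mrtfa, named Mkl1 in the files, at 0.860-fold to Elk4 at 1.05-fold. Other ERK feedback and output genes had 12 of 14 (median -0.15), from the neuropeptide precursor gene Vgf at 0.552-fold (limma adjusted p = 1.00) to the cyclin gene Ccnd1 at 1.05-fold. Other immediate early genes had 14 of 19 (median -0.19), from Npas4 at 0.608-fold to Trib1 at 1.13-fold. Npas4 was dim, at -4.92 and -5.37 with the Hdac6 vector against -4.88 and -3.98. It was not well above background on Hdac6 vector 2, and passed the filter only through the empty vector arrays, where its mean was higher. The binders of AU-rich elements had 6 of 8 (median -0.09), from Tia1 at 0.861-fold to Zfp36l2 at 1.09-fold. The median of each of these lists lay below 0 and nearer to it than the members' median, while the share below 0 reached 85.7% in the other ERK feedback and output genes, against 82.5% of the members.

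How many members lay below 0 depended on the arrays used. Without Hdac6 vector 1 it was 25 of 40 (62.5%, against 41.5% of tested probes) and without Hdac6 vector 2 it was 31 (77.5%, against 55.5%). Leaving out empty vector 1 gave 26 (65%, against 47.0%), and leaving out empty vector 2 gave 27 (67.5%, against 48.8%). These shares are over all tested probes, while each member stands as its brightest probe. With all 4 arrays the share below 0 was 46.8% of tested probes and 49.3% of tested genes. The members' median stayed below 0 each time, between -0.28 and -0.18. Fosl1, Junb, Dusp4, Dusp5, Dusp10, Spry1, Spry4, Etv4 and Klf10 kept their sign without any 1 array, as genes whose groups do not overlap must.

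**Figure D4:**
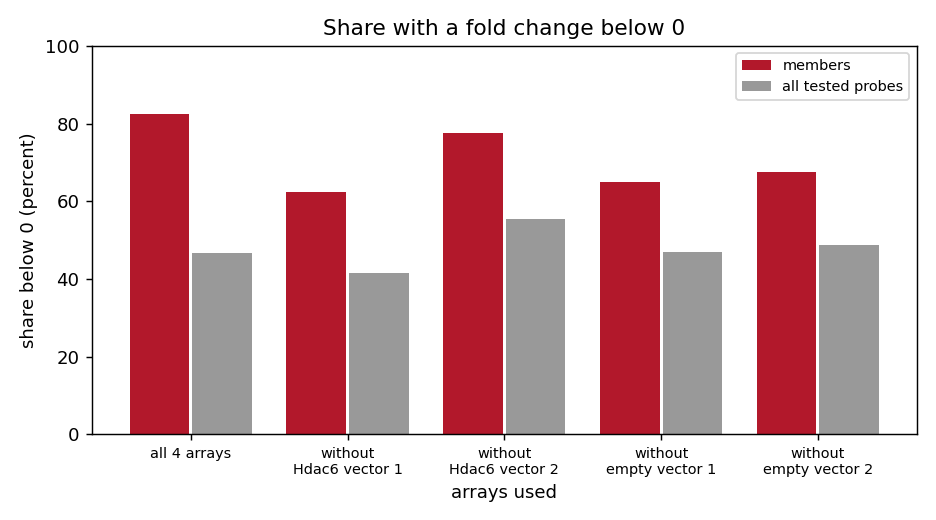
Share of member genes (red) and of all tested probes (grey) with a log2 fold change below 0 (y axis, percent), with all 4 arrays and with each array left out (x axis). The members' share lies between 62.5% and 82.5%, above that of the tested probes each time. Each member stands as its brightest probe, while the grey share is over all tested probes.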

How the data were processed

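Expression was measured on 4 one-colour Agilent arrays, 2 per group. Per the file headers, the deposited scanner files hold spot intensity extracted with Feature Extraction 11.5.1.1 under build mm9, with background subtracted and spatial trend removed, and no scaling between arrays. The authors also deposited a table of log2 values, 1 row per gene name, with no stated method. It served as an alternative.

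Outlier spots were left out, log2 intensities averaged over the spots of a probe (56605 probes), and each array's 75th percentile subtracted. The 15 probes without a value on an array were not tested. A probe was tested if well above background on both arrays of at least 1 group, by the scanner's flag (35205 probes, 23492 names). Each gene is given by the tested probe with the highest mean. Groups were compared with limma 3.58.1 in R 4.3.3 (lmFit, eBayes with a trend), two-sided, and p-values were adjusted by Benjamini-Hochberg across every probe tested; changed means an adjusted p under 0.05, and intervals are 95%. On simulated data with 35205 probes for this comparison, 11 of 50 changes of 2-fold and 49 of 50 of 4-fold were recovered, with 11 false calls. The simulation held 50 changes each of 2-fold, 4-fold, 8-fold and 16-fold at once, with independent normal errors. Recovery of a change on its own was not simulated. Members and lists were chosen with earlier results of these data known. All members are named, and from each pathway list its highest and lowest gene, with Etv5, Hdac6 and the brightest marker of each marker list. Pim1 and Acta2, the dim markers and the values of Cd68 were added after their values were seen. Counts of genes rest on the gene names in the files. Deviations of same-numbered arrays from their group means correlated at -0.36 over tested probes and at -0.53 over the 40 members. Arrays of unlike number thus tended to deviate alike. The labels do not say whether a replicate number marks a shared culture, so the main fit has no block. The number of arrays limits the precision.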

Additional observations from a re-analysis of the deposited data

How the results depend on the processing

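No member passed (0 of 40) under any alternative run, with limma adjusted p of at least 0.243, nor did the members' median turn sign. In the main fit 4 probes of 35205 passed and 645 had an unadjusted p under 0.05. The count of changed probes was 29 with normexp background correction (offset 50), 0 with median scaling (727 at an unadjusted limma p under 0.05), 2 with quantile normalization or without a trend in the spread, and 0 to 302 with an array left out, the most without empty vector 2. With the replicate number as a block it was 22, and with the crossed block, chosen after the data were seen, 15. No member passed under either block, so neither block changed a member's call.

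The 9 members with both Hdac6 vector arrays lower became 16 with median scaling and 19 in the authors' value table. They became 14 to 22 with an array left out, where fewer arrays make separation easier. Of all tested probes, 61.2% had a fold change below 0 with median scaling, against 46.8% in the main fit. Of the genes in the authors' values, 56.2% did. The share of all genes separated in this way was not counted for these settings. Whether the higher counts are particular to the members was not tested. The members' median was -0.33 in the value table, where Hbegf and Fosl2 stood at -2.30 and -0.90. The cause was not tested. The median of all tested probes lay between -0.07 and 0.11 over the scalings and filters.

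Signs turned for Dusp1 (-0.0329), Dusp6 (0.0234) and Spry4 (0.0270) with normexp, for Ier5 (-0.0908) and Dusp1 (-0.0247) with median scaling, for Ier5 (-0.0821), Dusp1 (-0.0163) and Nr4a3 (-0.32) in the value table, and for Ier2 (0.0328) with the mean over probes. The causes were not tested. With an array left out, log2 fold changes lay on both sides of 0 for Fosl2 (-0.47 to 0.0356), Jun (-0.62 to 0.85), Jund (-0.31 to 0.26), Fos (-0.46 to 0.0184), Egr1 (-0.91 to 0.0667), Egr2 (-0.70 to 0.0284), Ier2 (-0.24 to 0.0901), Ier5 (-0.12 to 0.12), Dusp1 (-0.14 to 0.27), Dusp6 (-0.17 to 0.0100), Dusp7 (-0.88 to 0.34), Spry2 (-0.66 to 0.38), Spred1 (-0.80 to 0.0524), Spred2 (-0.31 to 0.14), Klf2 (-0.18 to 0.17), Klf4 (-0.23 to 0.18), Klf6 (-0.36 to 0.19), Nr4a1 (-0.47 to 0.0132), Nr4a2 (-1.07 to 0.0770), Myc (-0.50 to 0.0879), Maff (-0.94 to 0.33), Phlda1 (-0.65 to 0.13) and Hbegf (-0.55 to 0.0838). In such fits the group with a lone array is assumed to vary like the other.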
